A study of Homo sapiens with 6 samples.

Results

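The mitochondrial protein import machinery was followed here as 36 human genes, chosen by name from the known translocases, sorting machinery, chaperones and processing protease that bring nuclear-encoded proteins into mitochondria. For the gene tests, the counts of each gene's transcripts that passed the low-count filter were summed. Shares of library totals used all its transcripts. The 36 genes are 36 of the 31768 genes in the count table. Of these, 33 passed the filters on low counts, among 11118 genes of the whole series. The other 3 (TOMM34, TIMM22 and TIMM23) had 1 kept transcript each and were tested in a separate fit that also admits such genes (12856 genes). Cells of HMC3, an immortalized human line that the labels call microglia, received 15 Gy of X-rays or 0 Gy and were harvested 24 h later. Each group held 3 independent cultures of this single line, and the labels give no other difference between the groups. Polyadenylated RNA was copied to cDNA, amplified by PCR and read by Oxford Nanopore sequencing, and the files hold whole-number counts per transcript.

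Nearly all mitochondrial proteins are made in the cytosol and imported. The TOM complex of the outer membrane is the common entry gate. Behind it the SAM complex builds beta-barrel proteins into the outer membrane, small TIM chaperones and a disulfide relay serve the intermembrane space, TIM22 inserts carrier proteins into the inner membrane, and TIM23 with the HSPA9 motor pulls presequence proteins into the matrix, where a peptidase removes the presequence and the HSPD1 and HSPE1 chaperonin folds the product. Import capacity has to match the load of respiratory chain and ribosomal proteins, and its components are under the control of nuclear factors such as NRF1 and of the ETS family.

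The promoters of CHCHD4, TIMM10, TOMM40 and HSPE1 are printed because CHCHD4 had the largest decrease among the import genes, TOMM40 was the one import gene called higher, TIMM10 carries several motifs, and HSPE1 lies beside a start of HSPD1. Sequences are the RefSeq windows on GRCh38.p14, from 250 bases before to 50 bases after the annotated start, 5′ to 3′ on the gene's strand, and capitals mark motif matches on either strand. CHCHD4 holds 2 overlapping NRF1 matches (GCGCATGC) at chr3:14124821-14125120, minus strand, which are 1 palindromic stretch (GCGCATGCGC) read on both strands. TIMM10 has 2 ETS matches (CCGGAAG), an E-box (CACGTG) and 1 SP1 match (GGGCGG, here on the other strand) at chr11:57530705-57531004, minus strand. The windows of TIMM17A, TIMM50 and PMPCA hold more matches (7 each), and of these genes only TIMM17A passed the gene test. TOMM40 has 5 NF-Y matches (CCAAT) and 3 SP1 matches at chr19:44891004-44891303, plus strand. The HSPE1 window at chr2:197500129-197500428, plus strand, overlaps 1 of the 2 HSPD1 windows, whose start lies 105 bases away and is read in the opposite direction, and it holds an E-box and 1 SP1 match.
CHCHD4: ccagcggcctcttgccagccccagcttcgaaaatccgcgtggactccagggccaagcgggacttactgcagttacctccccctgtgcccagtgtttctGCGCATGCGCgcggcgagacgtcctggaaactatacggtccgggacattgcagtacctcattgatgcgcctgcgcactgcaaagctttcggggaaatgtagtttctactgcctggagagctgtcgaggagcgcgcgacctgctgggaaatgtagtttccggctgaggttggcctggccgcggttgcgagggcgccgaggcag
TIMM10: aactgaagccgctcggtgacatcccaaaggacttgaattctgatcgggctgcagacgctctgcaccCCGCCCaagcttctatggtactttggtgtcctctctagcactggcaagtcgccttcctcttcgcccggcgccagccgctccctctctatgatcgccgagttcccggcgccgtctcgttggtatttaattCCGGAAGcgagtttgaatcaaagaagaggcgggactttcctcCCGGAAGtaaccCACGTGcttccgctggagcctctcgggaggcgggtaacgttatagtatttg
TOMM40: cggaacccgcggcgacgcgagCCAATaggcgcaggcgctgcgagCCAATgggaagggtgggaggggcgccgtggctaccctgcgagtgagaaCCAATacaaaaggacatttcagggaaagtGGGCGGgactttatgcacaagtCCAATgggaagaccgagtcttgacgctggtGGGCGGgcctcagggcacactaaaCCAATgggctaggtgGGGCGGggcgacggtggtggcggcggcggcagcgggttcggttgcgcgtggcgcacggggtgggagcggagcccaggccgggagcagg
HSPE1: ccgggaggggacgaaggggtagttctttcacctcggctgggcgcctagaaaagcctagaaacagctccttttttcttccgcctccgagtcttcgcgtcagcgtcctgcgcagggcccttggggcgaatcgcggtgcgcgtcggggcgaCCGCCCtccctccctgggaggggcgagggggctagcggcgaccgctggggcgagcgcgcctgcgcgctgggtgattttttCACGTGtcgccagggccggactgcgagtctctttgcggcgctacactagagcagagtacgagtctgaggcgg

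The promoter table matched 33 of the 36 genes, 3 of them with more than 1 window (a match in any window counted), and TOMM5, TIMM8B and GRPEL1 had no entry in it. The ETS letters stood in 12 of the 33 import genes (36.4%), against 12.2% of 27305 genes with a promoter of the same length. These 12 were TOMM6, TOMM20, TOMM22, TOMM34, TOMM70, MTX2, TIMM10, TIMM10B, TIMM13, TIMM23, TIMM29 and PMPCB. The NRF1 letters stood in 6 (CHCHD4, TOMM7, TIMM9, TIMM10B, PAM16 and AIFM1; 18.2%), against 3.68% of all genes. The E-box was found in 6 (18.2%, against 8.77%), the SP1 letters in 23 (69.7%, against 48.3%), the NF-Y letters in 11 (33.3%, against 39.7%) and the YY1 letters AAGATGGC in 2 (6.06%, against 3.52%). HSPD1 and HSPE1 share the same E-box bases, which count here for both genes. A heat shock element (GAANNTTC, searched after the results were known) was found in HSPD1 alone (3.03%, against 8.21%). Such matches describe letters in these windows and say nothing about binding in HMC3 cells.

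Library totals lay between 6292049 and 6909420 counts in irradiated cells and between 4870897 and 9082409 counts in control cells. Import genes took 0.499%, 0.506% and 0.514% of all counts in the irradiated libraries, against 0.591%, 0.573% and 0.566% in the control libraries. These shares did not overlap. CDKN1A, the p21 gene induced by p53 after DNA damage, had 619, 621 and 637 CPM in irradiated cells, against 167, 184 and 199.6 CPM in control cells (log2 fold change 1.77). CPM are counts put on a common library size, here after TMM, a correction of library totals for composition. Among microglial markers, 7 (ITGAM, CX3CR1, P2RY12, TMEM119, C1QA, C1QB and SALL1) had no row in the table used here, and AIF1, PTPRC, SPI1, CSF1R and TREM2 had at most 13 counts in any library. The fibroblast and pericyte list summed to between 277 and 333 CPM in irradiated cells and between 315 and 338 CPM in control cells, mostly from COL1A1 and THY1, while 5 of its 10 genes (COL3A1, LUM, PDGFRA, DCN and FAP) stayed under 1 CPM in every library or had no row. The cells are therefore called HMC3 here and not microglia. Only a bulk measurement was made, and fewer cells of a kind and less RNA per cell cannot be told apart.

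Import genes were mostly lower in irradiated cells. Of the 33 tested genes, 20 fell and 1 (TOMM40) rose at an adjusted p under 0.05, and 12 did not pass. Over all genes tested, 14.1% fell and 11.6% rose at the same limit. With the added limit of an absolute log2 fold change over 1, CHCHD4 remained as the 1 gene differentially expressed, beside 1.7% of all genes that were lower by that rule. CHCHD4 fell short of that limit with the length offset (-0.98), without control culture 2 (-0.93) and with totals alone (-0.67). TOMM20 went past it with the length offset (-1.07), TIMM13 without control culture 3 (-1.04), and TIMM29, in the other direction, with the length offset (1.02) and with totals (1.20). The 3 irradiated libraries lay wholly below the 3 control libraries in 22 of the 33 genes and wholly above them in 2 (TOMM40 and TOMM70), beside 21.3% and 21.5% of all genes. The median log2 fold change was -0.56 over the import genes and 0.08 over all genes, and it was negative in 29 of the 33 (87.9%), against 45.2% of all genes.

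**Figure D1:**
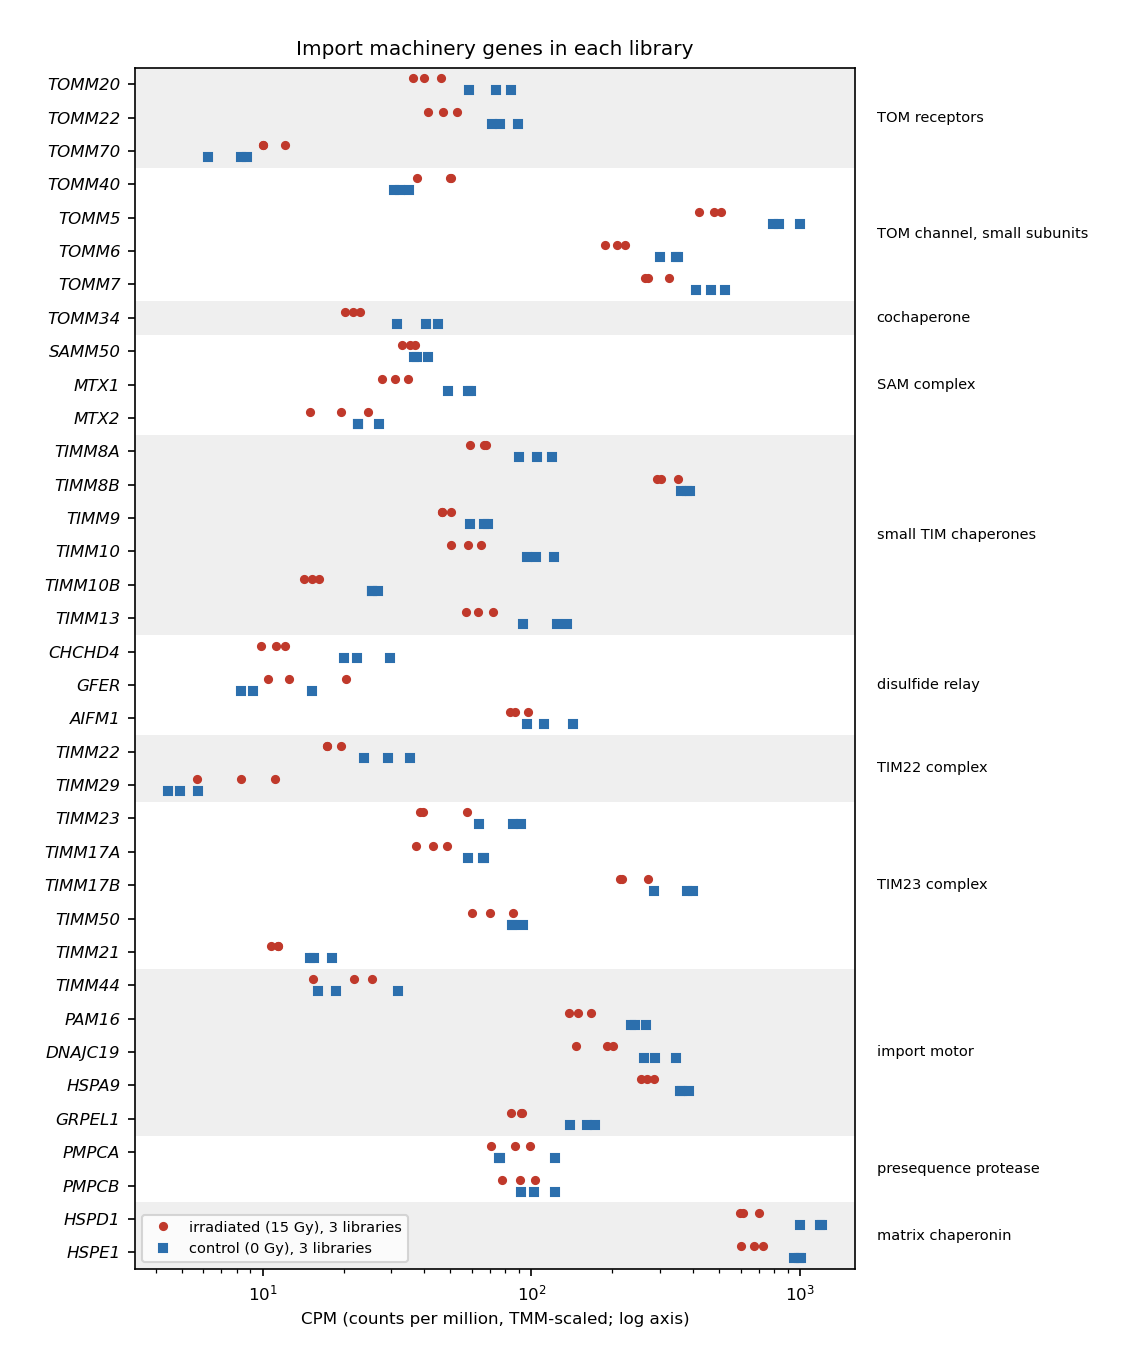
CPM of the 36 import genes in each library on a log axis, irradiated circles above control squares, with genes ordered by their place in the import pathway. The 3 irradiated values lie wholly below the 3 control values in 22 of the 33 tested genes and wholly above them in TOMM40 and TOMM70.

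The size of these changes depends on scaling. TMM factors were 1.24, 1.09 and 1.18 in irradiated libraries and 0.849, 0.793 and 0.928 in control libraries. Scaling by totals alone moved the median of all genes up by 0.45 on the log2 scale, to 0.53. The import median was then -0.11. With totals 9 genes were lower (TOMM5, TOMM6, TOMM7, TIMM10, TIMM13, CHCHD4, PAM16, GRPEL1 and HSPD1) and 3 higher (TOMM40, TOMM70 and TIMM29). The import median minus that of all genes was -0.64 under both scalings. Other library factors move all genes by nearly the same amount, so this difference could hardly change and is no check. Under totals alone the direction turned positive for 10 genes, of which TIMM9 (0.00705) and HSPA9 (0.00315) are 2 that fell with TMM. Length also went with the fold change. The median length, weighted by counts over transcripts in GENCODE release 29, was 1620 bases for import genes and 2692 bases for all genes, and log2 fold change and log2 length had a Pearson r of 0.33 across 10668 genes, which are not independent replicates. With each library's trend on length removed, the import median was -0.40 and that of all genes -0.05, a difference of -0.35. In that run 19 import genes were lower. Control culture 3 was the control nearest to the irradiated mean in 17 of the 20 decreased genes. Its TMM factor (0.928) was also the control factor nearest to those of the irradiated libraries. The same count was not made over all genes, so it is not a trait shown to belong to import genes.

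**Figure D2:**
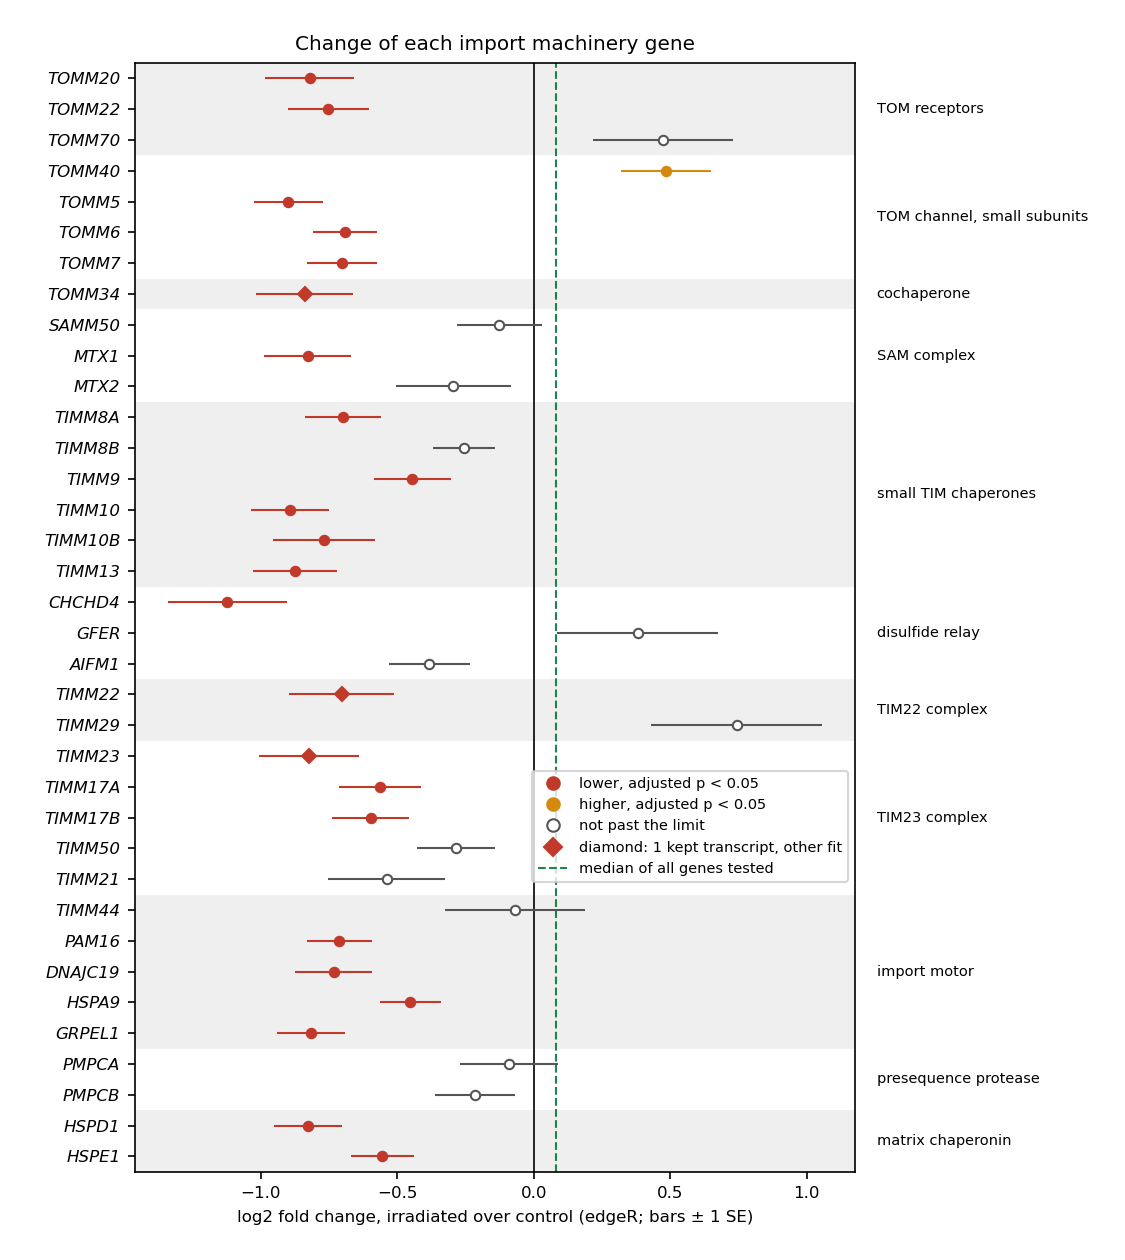
Log2 fold change, irradiated over control, of each import gene with 1 standard error on either side (edgeR, 3 libraries per group); filled red symbols are lower and the filled orange symbol is higher at an adjusted p under 0.05, diamonds come from the fit with 1-transcript genes. Most genes lie left of the dashed median of all genes (0.08), whereas TOMM70, TOMM40, GFER and TIMM29 lie to its right.

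Among the receptors of the TOM complex, 2 of 3 fell. TOMM20, the receptor for presequences (chromosome 1, 235109336 to 235128936), had 36.4, 46.1 and 39.8 CPM in irradiated cells, against 73.8, 83.7 and 58.7 CPM in control cells. Its log2 fold change was -0.82 ± 0.16 (SE, adjusted p = 0.00227). TOMM22, the central receptor that docks the others to the channel, had 41.1, 52.8 and 46.9 CPM in irradiated cells and 76.3, 89.3 and 71.4 CPM in control cells (log2 fold change -0.75). Both fell to under 60% of the control level (56.6% and 59.4%), with no overlap between groups. TOMM70, the receptor for carrier precursors with internal signals, had 10.03, 10.02 and 12.1 CPM in irradiated cells and 8.78, 6.27 and 8.28 CPM in control cells. All 3 of its irradiated values exceeded the highest control value, but the change (0.47 ± 0.26) did not pass the test (adjusted p = 0.184). TOMM70 counts were low, and with totals alone its change was 0.92 with an adjusted p of 0.0231. TOMM20 (-0.36, adjusted p = 0.0614) and TOMM22 (-0.30, adjusted p = 0.0857) did not pass with totals alone.

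TOMM40 forms the beta-barrel pore itself, and TOMM5, TOMM6 and TOMM7 are small helical subunits that assemble and steady it. TOMM40 (chromosome 19, 44890569 to 44903689) had 49.6, 37.7 and 50.1 CPM in irradiated cells, against 32.4, 30.8 and 34.97 CPM in control cells. It rose by 0.49 ± 0.17 on the log2 scale (adjusted p = 0.0411), with irradiated culture 2 closest to the controls. The call was lost with RLE factors (adjusted p = 0.054), without the filter (0.0525), with DESeq2 (0.0578) and with the length offset (0.0606), while the direction held in every alternative run. It was also lost when irradiated culture 1 or 3 or control culture 1 or 2 was left out (0.0956 to 0.160). TOMM5 had 420.4, 509 and 478 CPM in irradiated cells, against 837, 997 and 791 CPM in control cells, a decrease to 53.6% (log2 fold change -0.90 ± 0.13, adjusted p = 0.000478). TOMM6 and TOMM7 fell to 61.9% and 61.4% of the control level (log2 fold changes -0.69 and -0.70). The pore gene and its 3 small partners thus moved in opposite directions. TOMM34, a cytosolic cochaperone that escorts precursors, had 20.3, 23.0 and 21.6 CPM in irradiated cells and 44.8, 40.5 and 31.5 CPM in control cells, and it fell in the fit with 1-transcript genes (-0.84 ± 0.18, adjusted p = 0.00496), in which 13.9% of all genes were lower.

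In the SAM complex only the metaxin MTX1 passed the test. MTX1, which helps present precursors to the SAM core, had 31.2, 34.8 and 27.9 CPM in irradiated cells and 59.7, 58.3 and 49.1 CPM in control cells (log2 fold change -0.83 ± 0.16, adjusted p = 0.00196). SAMM50, the barrel-shaped core that inserts TOMM40 and porins, averaged 35.1 ± 1.96 CPM in irradiated cells and 38.5 ± 2.35 CPM in control cells (SD, n = 3 each), and its groups overlapped (-0.13, adjusted p = 0.583). MTX2, the partner of MTX1, averaged 19.7 ± 4.86 CPM in irradiated cells and 24.1 ± 2.59 CPM in control cells, also with overlap (-0.29, adjusted p = 0.322). Neither value shows that SAMM50 and MTX2 were unaffected.

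The small TIM chaperones carry hydrophobic precursors across the intermembrane space as hexameric rings, TIMM9 with TIMM10 and TIMM8A with TIMM13, while TIMM10B tethers a ring to TIM22. All 6 had negative values without overlap between groups, and 5 of the 6 passed the test. TIMM10 (chromosome 11, 57528463 to 57530803) had 50.3, 58.2 and 64.8 CPM in irradiated cells, against 104, 121 and 96.5 CPM in control cells, and fell to 53.9% (log2 fold change -0.89 ± 0.14, adjusted p = 0.000787). TIMM13 had 63.2, 72.2 and 57.1 CPM in irradiated cells and 136, 124 and 93.1 CPM in control cells (-0.87). The controls spread more than the irradiated cultures for TIMM13, with control culture 3 lowest. TIMM10B fell to 58.7% and TIMM8A to 61.6% (log2 fold changes -0.77 and -0.70). TIMM9 had 46.6, 46.4 and 50.4 CPM in irradiated cells and 59.0, 66.7 and 68.8 CPM in control cells, a smaller decrease (-0.44, adjusted p = 0.0283) that did not pass without the filter (adjusted p = 0.0823), with the length offset (-0.21, adjusted p = 0.310) or without any one irradiated culture (0.0677 to 0.0962) or control culture 2 (0.0791). TIMM8B, the close relative of TIMM8A, had 293, 351 and 302 CPM in irradiated cells and 381, 389 and 360.0 CPM in control cells and did not pass (-0.26, adjusted p = 0.112). It passed without control culture 3 (-0.31, adjusted p = 0.0406), and its value was 0.0341 with the length offset.

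The disulfide relay oxidizes small cysteine-rich proteins such as the small TIMs and so traps them in the intermembrane space. CHCHD4, the oxidoreductase of the relay (chromosome 3, 14112077 to 14124870), had 9.90, 12.1 and 11.2 CPM in irradiated cells, against 20.1, 29.7 and 22.4 CPM in control cells. It fell to 45.9% (log2 fold change -1.12 ± 0.22, adjusted p = 0.0021), and both of its kept protein-coding transcripts decreased to a similar degree (-1.23 for ENST00000295767 and -1.14 for ENST00000396914). AIFM1, which anchors CHCHD4 to the inner membrane, had 87.1, 83.4 and 96.9 CPM in irradiated cells and 143, 111 and 96.0 CPM in control cells and did not pass (-0.38, adjusted p = 0.0681). Control culture 3 lay inside its irradiated range, and the gene passed without that culture (-0.53, adjusted p = 0.00824) and with DESeq2 (0.0447). GFER, the oxidase that reoxidizes CHCHD4, had 20.5, 12.6 and 10.5 CPM in irradiated cells and 8.28, 9.18 and 15.3 CPM in control cells, with overlap (0.38 ± 0.29, adjusted p = 0.359).

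The TIM22 translocase inserts multispanning carriers. TIMM22, its channel, had 17.4, 19.5 and 17.3 CPM in irradiated cells and 29.3, 35.3 and 23.8 CPM in control cells and fell in the fit with 1-transcript genes (-0.70, adjusted p = 0.0177). TIMM29, a subunit that links TIM22 to the outer membrane, had 11.1, 5.68 and 8.31 CPM in irradiated cells and 5.77, 4.44 and 4.94 CPM in control cells. Its change was positive and did not pass (0.74 ± 0.31, adjusted p = 0.0919). It passed with the length offset (1.02, adjusted p = 0.0353), with totals alone (1.20, adjusted p = 0.0205) and without irradiated culture 2 (0.95, adjusted p = 0.046), on few reads throughout.

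The TIM23 translocase takes presequence proteins through the inner membrane. TIMM23, its channel-forming subunit, had 39.6, 57.6 and 38.7 CPM in irradiated cells and 85.6, 91.4 and 63.7 CPM in control cells (-0.82, adjusted p = 0.0065, fit with 1-transcript genes). Its near-copy TIMM23B can share reads with it. TIMM17B and TIMM17A, alternative partners of TIMM23, fell to 66.1% and 67.6% (log2 fold changes -0.60 and -0.56), and the TIMM17A call was lost when irradiated culture 1 was left out (adjusted p = 0.0725). TIMM17B had 214, 271 and 218 CPM in irradiated cells and 380.0, 398 and 286 CPM in control cells. TIMM21, a coupling subunit, had 10.7, 11.4 and 11.4 CPM in irradiated cells and 15.6, 18.1 and 15.0 CPM in control cells, without overlap and short of the limit (-0.54, adjusted p = 0.0754), which it passed with the length offset (-0.71, adjusted p = 0.0281). TIMM50, the receptor that hands precursors from TOM to TIM23, averaged 71.9 ± 12.5 CPM in irradiated cells and 87.6 ± 4.56 CPM in control cells (SD, n = 3 each) and did not pass (-0.28, adjusted p = 0.156).

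The import motor fell in 4 of its 5 genes. GRPEL1, the nucleotide exchange factor of HSPA9 (chromosome 4, 7058906 to 7068197), had 84.0, 91.8 and 92.03 CPM in irradiated cells, against 172, 161 and 139 CPM in control cells (log2 fold change -0.82 ± 0.13, adjusted p = 0.000754). DNAJC19 and PAM16, the J protein of the motor and its J-like regulator, fell to 60.2% and 61.1% (-0.73 and -0.71). HSPA9, the mitochondrial HSP70 that pulls the precursor in, had 269, 256 and 286 CPM in irradiated cells and 386, 364 and 358 CPM in control cells (-0.45 ± 0.11, adjusted p = 0.0077). The smallest control value of HSPA9 was above its largest irradiated value. TIMM44, which tethers HSPA9 to the channel, had 21.8, 25.4 and 15.3 CPM in irradiated cells and 31.9, 16.1 and 18.8 CPM in control cells. Its groups overlapped (-0.07 ± 0.26, adjusted p = 0.872), and its sign changed when control culture 1 was left out (0.24).

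In the matrix, both chaperonin genes fell, and neither gene of the presequence protease passed the test. PMPCA, the substrate-binding subunit of the protease, had 98.6, 70.7 and 86.9 CPM in irradiated cells and 123, 75.7 and 76.6 CPM in control cells (-0.09, adjusted p = 0.753). PMPCB, the catalytic subunit, had 77.5, 103 and 91.01 CPM in irradiated cells and 102, 122 and 91.3 CPM in control cells (-0.22, adjusted p = 0.291). For both the groups overlapped. HSPD1, the HSP60 barrel in which imported proteins fold (chromosome 2, 197486581 to 197516737), had 596, 704 and 615 CPM in irradiated cells, against 1208, 1189 and 999.9 CPM in control cells. It fell to 56.4% (-0.83 ± 0.12, adjusted p = 0.000646). HSPE1, the HSP10 lid of that barrel, had 602, 676 and 727 CPM in irradiated cells and 988, 1009 and 947 CPM in control cells and fell to 68.1% (-0.55 ± 0.12, adjusted p = 0.00319). With the length offset HSPE1 did not pass (-0.25, adjusted p = 0.0697).

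Ratios of partner genes within a library do not depend on scaling between libraries. They were formed for 11 pairs of one complex or step, chosen with the gene values known, and are ratios of read counts that are not divided by length, so that only their difference between groups can be read. The ratio of TOMM40 to TOMM22 was 1.21, 0.714 and 1.07 in irradiated cells, against 0.424, 0.344 and 0.490 in control cells, a 2.34-fold higher mean. The ratio of TOMM70 to TOMM20 was 0.276, 0.218 and 0.305 in irradiated cells and 0.119, 0.0750 and 0.141 in control cells (2.44-fold). In both pairs, which lie within the TOM complex, every irradiated value was above every control value. The ratio of SAMM50 to MTX1 was 1.14, 0.948 and 1.33 in irradiated cells and 0.689, 0.630 and 0.766 in control cells (1.63-fold). The ratio of TIMM9 to TIMM10, the 2 subunits of 1 ring, was 0.926, 0.797 and 0.777 in irradiated cells and 0.568, 0.549 and 0.713 in control cells (1.37-fold). The ratio of HSPE1 to HSPD1 was 1.01, 0.960 and 1.18 in irradiated cells and 0.818, 0.849 and 0.947 in control cells (1.20-fold). The ratio of GRPEL1 to HSPA9 lay lower in irradiated cells, with 0.313, 0.359 and 0.321 in irradiated cells and 0.445, 0.443 and 0.388 in control cells (0.779-fold).

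The ratio of GFER to CHCHD4 was 2.07, 1.04 and 0.932 in irradiated cells and 0.413, 0.309 and 0.685 in control cells (2.84-fold). For each of these pairs the two-sided exact permutation test of 3 against 3 gave p = 0.1, the smallest possible (0.157 after Benjamini-Hochberg adjustment over the 11 pairs), and since pairs were picked with gene values known, their number is no result. The other 4 pairs overlapped: TIMM17A to TIMM17B (1.01-fold, exact permutation p = 0.8), PAM16 to DNAJC19 (1.02-fold, exact permutation p = 1), PMPCA to PMPCB (1.10-fold, exact permutation p = 0.7) and TIMM8A to TIMM13 (1.13-fold, exact permutation p = 0.6). PMPCA to PMPCB varied between cultures from 0.687 to 1.27 in irradiated cells and from 0.620 to 1.20 in control cells.

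**Figure D3:**
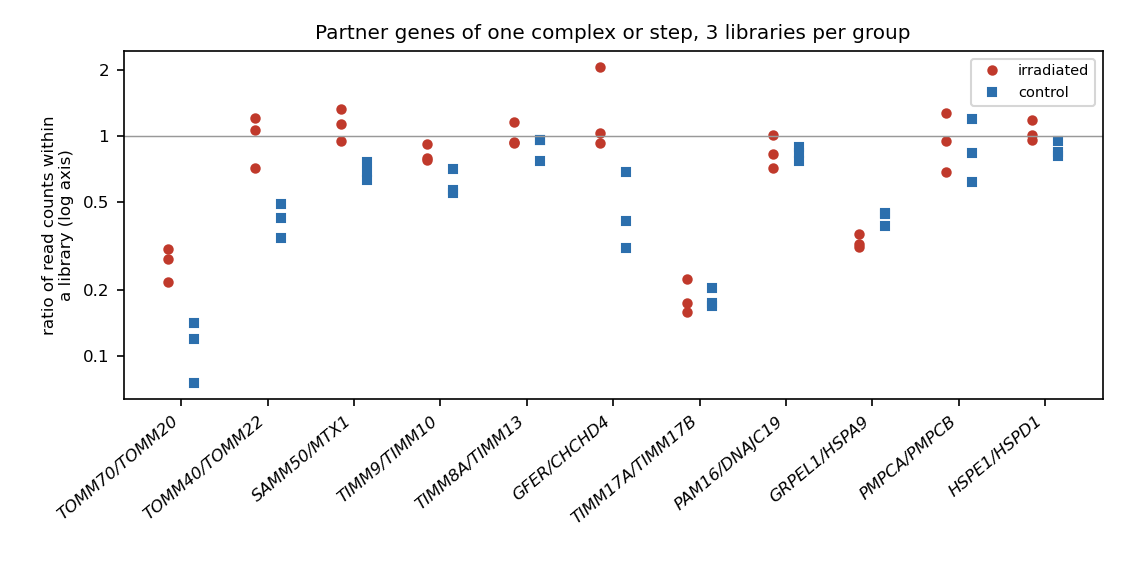
Read count of the first gene divided by that of its partner within each library, on a log axis, for 11 pairs; red circles are the 3 irradiated and blue squares the 3 control libraries. TOMM70/TOMM20, TOMM40/TOMM22 and GFER/CHCHD4 are the pairs whose groups lie farthest apart, whereas TIMM17A/TIMM17B and PAM16/DNAJC19 overlap.

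At the transcript level, 244 kept transcripts were tested, and a call needed both the adjusted p limit of 0.05 and a log2 fold change beyond 1 in size. Of these, 30 transcripts of 13 genes were lower and 5, all of AIFM1, were higher, beside 4.33% and 3.36% of all transcripts. The main coding transcripts of TOMM7 (ENST00000358435, -1.02), TIMM13 (ENST00000215570, -1.15) and TIMM10 (ENST00000257245, -1.01) were among the decreased ones with at least 10 CPM. The PAM16 transcript ENST00000571986 (-1.06), annotated to nonsense-mediated decay, and the GRPEL1 transcript ENST00000504920 with a retained intron (-1.08) were others. HSPD1 and HSPA9 each had several lower transcripts, and the 3 of HSPD1 with the smallest adjusted p, which GENCODE 29 does not hold, were ENST00000678621 (-1.54), ENST00000677403 (-1.45) and, between these 2, ENST00000678545. Transcripts of 1 gene can share reads and are not separate observations. AIFM1 held both directions, with ENST00000674546 lower at 8.33 CPM in irradiated cells and 18.7 CPM in control cells (-1.13), while the 5 higher transcripts had means between 3.18 and 4.35 CPM in irradiated cells and between 1.22 and 2.18 CPM in control cells. With totals alone 5 import transcripts were lower and 35 higher.

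Annotated coding transcripts made up less of the import counts in irradiated cells. Protein-coding transcripts took 65.5%, 67.5% and 66.4% of the import counts in irradiated cells, against 69.5%, 70.9% and 69.3% in control cells. Retained-intron transcripts took 6.29%, 5.61% and 6.08% in irradiated cells and 4.93%, 4.77% and 5.27% in control cells. Transcripts annotated to nonsense-mediated decay took 5.84%, 5.72% and 5.56% in irradiated cells and 4.72%, 4.503% and 4.903% in control cells. Other non-coding transcripts took 3.42%, 3.10% and 3.25% in irradiated cells and 2.10%, 2.14% and 2.55% in control cells. None of these 4 classes overlapped between the groups, and the shares need no scaling between libraries. They pool the counts of all import genes, so unequal changes of whole genes can move them without any change of usage within a gene. The part of this gene mix was not tested. Over all kept transcripts the coding share was between 63.8% and 64.7% in irradiated cells and between 65.8% and 67.03% in control cells, and the retained-intron share was between 9.02% and 9.35% in irradiated cells and between 8.22% and 8.69% in control cells, so both stood apart in the same directions over the whole table. Other non-coding transcripts over the whole table took between 5.82% and 6.07% in irradiated cells and between 4.93% and 5.48% in control cells. This class too stood apart in the same direction. The decay class over all transcripts was between 6.16% and 6.18% in irradiated cells and between 6.19% and 6.203% in control cells. Transcripts without an entry in GENCODE 29 took between 18.1% and 18.9% in irradiated cells and between 17.7% and 18.7% in control cells.

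Usage, the share of a gene's counts that 1 isoform takes, was called switched for 5 import isoforms of 4 genes at an adjusted p under 0.05 with a shift (dIF) of at least 10 percentage points, beside 0.404% of all isoforms. Of the 5, 3 were gained and 2 reduced, beside 0.269% and 0.135% of all isoforms. The 30 bases around a boundary that tells a switched isoform from the main one are printed here from GENCODE 29 transcripts (GRCh38). The isoforms can also differ in their starts, ends and other exons. Capitals mark the first 15 bases after the boundary, and lower case the last 15 before it. In TIMM13 (chromosome 19, minus strand) base 2427324 follows base 2427459 in the gained isoform and base 2427414 in the main isoform, which leaves 45 bases, or 15 codons, of exon 1 out of the gained one. The gained TIMM13 isoform is also annotated to start 356 bases later and to end 941 bases earlier. Its whole length is 631 bases, against 1973 bases for the main isoform. In TIMM17A (chromosome 1, plus strand) the gained RNA begins in the intron before exon 4, 1400 bases upstream of that exon's first base, 201963616. In SAMM50 (chromosome 22, plus strand) it begins in an intron, 2767 bases upstream of the exon that starts at 43989111. In TIMM44 (chromosome 19, minus strand) the reduced isoform joins base 7938027 to base 7935253, which lengthens the next exon by 108 bases compared with the main isoform, where base 7935145 follows.
TIMM13 gained (ENST00000591871): ctcataatggagcagAGGATGACGGACAAG
TIMM13 main (ENST00000215570): caggagctgctgcagAGGATGACGGACAAG
TIMM17A gained (ENST00000482943): tttacaataaaatagGTAGCTTTGCAGTTT
TIMM17A main (ENST00000367287): ctccacagttaggagGTAGCTTTGCAGTTT
SAMM50 gained (ENST00000494795): ccctcctttgcttagGAGACTACCTAGGTG
SAMM50 main (ENST00000350028): ggccacagagcgaagGAGACTACCTAGGTG
TIMM44 reduced (ENST00000595876): gccagaaggaaatacGAGGAAGTTGCAGTG
TIMM44 main (ENST00000270538): gccagaaggaaatacAAAACCATCGAGTCA

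The TIMM13 call held in every alternative run, and its shift was 24.5 points when fractions were divided by length. Its shorter coding isoform ENST00000591871 took 24.1%, 18.2% and 20.4% of the gene's counts in irradiated cells, against 6.81%, 7.01% and 9.30% in control cells (dIF 13.2 points, adjusted p = 3.1e-05 by edgeR's diffSpliceDGE). This isoform held 114, 88 and 91 reads in irradiated cells and 37, 57 and 70 reads in control cells. The main isoform held 358, 395 and 356 reads in irradiated cells and 506, 756 and 683 reads in control cells. In TIMM17A the non-coding ENST00000482943 took 29.9%, 22.9% and 32.3% in irradiated cells, against 11.8%, 11.5% and 19.7% in control cells (dIF 14.03 points, adjusted p = 0.00213). This call was lost without irradiated culture 3 (adjusted p = 0.0579). In SAMM50 the retained-intron ENST00000494795 took 18.9%, 17.2% and 20.1% in irradiated cells, against 7.32%, 4.17% and 13.8% in control cells (dIF 10.3 points, adjusted p = 0.0308). The SAMM50 call was lost in 5 of the 6 fits that leave out 1 culture, all but the one without control culture 3 (adjusted p between 0.0675 and 0.202), and its shift was 6.85 points when fractions were divided by length. The summed SAMM50 count did not pass the gene test.

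In TIMM44, 2 minor isoforms were used less. ENST00000595876, annotated to nonsense-mediated decay, took 2.45%, 4.12% and 5.00% in irradiated cells and 15.0%, 20.9% and 13.8% in control cells (dIF -12.7 points, adjusted p = 0.00501). ENST00000600000, with a retained intron, took 2.45%, 3.53% and 5.00% in irradiated cells and 12.6%, 18.1% and 13.2% in control cells (dIF -11.0 points, adjusted p = 0.0117). They held 4, 7 and 6 and 4, 6 and 6 reads in irradiated cells and 19, 22 and 21 and 16, 19 and 20 reads in control cells. The 2 counts are close in every library, and whether the same reads were shared between both models was not tested. The first call was lost without irradiated culture 1 (adjusted p = 0.106), and the second without irradiated culture 1 or 2 or control culture 2 (0.159, 0.0627 and 0.0802). With fractions divided by length the second shift was -22.4 points.

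**Figure D4:**
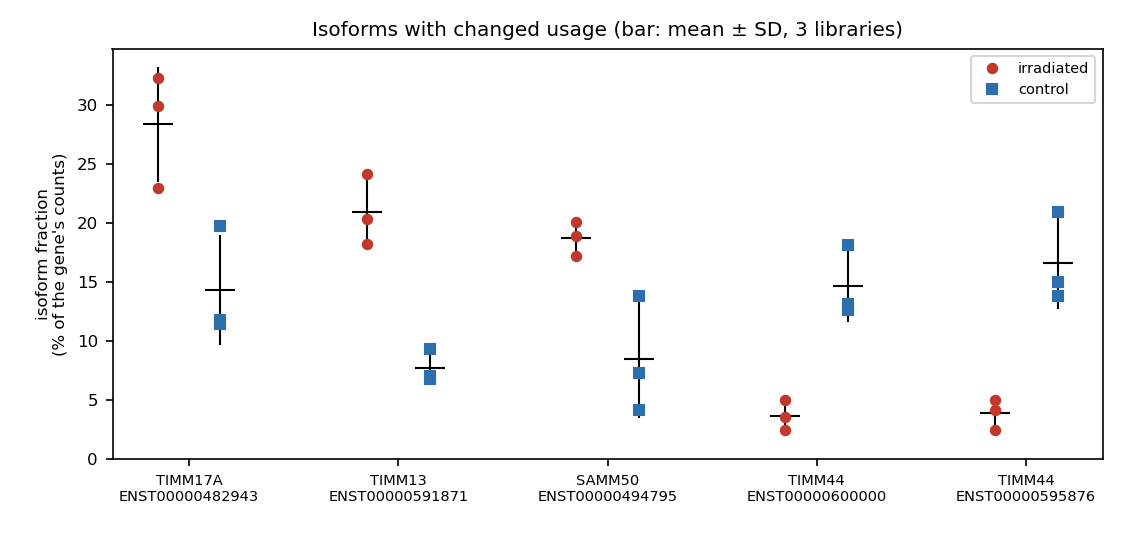
Isoform fraction, in percent of the gene's counts, of the 5 import isoforms called switched, with the 3 irradiated libraries (circles) left of the 3 control libraries (squares) and the mean ± SD as a bar. In each isoform the irradiated and control values do not overlap, but the isoforms were chosen by their difference in these same libraries. The separation is therefore no added support.

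With limma's diffSplice 10 import isoforms were called, the added 5 all being reduced main transcripts: those of TOMM7 (-11.4 points), TIMM13 (-13.2 points), TIMM17A (-13.1 points), TIMM9 (-19.7 points) and SAMM50 (-21.1 points). The main TIMM9 transcript ENST00000395159 took 49.4%, 63.9% and 50.3% in irradiated cells and 76.2%, 78.4% and 68.0% in control cells. In all, 13 import isoforms shifted by at least 10 points (5.33% of import isoforms and 5.12% of all isoforms), 6 of them gained. The gained and reduced ones differed in where they start. Starts were measured from the first start of any kept transcript of the gene with a GENCODE 29 entry. Of the 6 gained import isoforms, 5 have an annotated start more than 1000 bases downstream of that first start. The 7 reduced ones have starts within 254 bases of it. Over all isoforms with a shift of that size and a GENCODE 29 entry, 38.7% of 1415 gained and 15.6% of 1832 reduced ones start more than 1000 bases downstream. The 5 gained isoforms with late starts, in SAMM50, TIMM17A and TIMM44, end within 310 bases of the last end among those kept transcripts. A count per transcript does not tell an RNA that begins at the late start from a shortened read of a longer RNA, and the part of read length in these shifts was not tested.

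**Figure D5:**
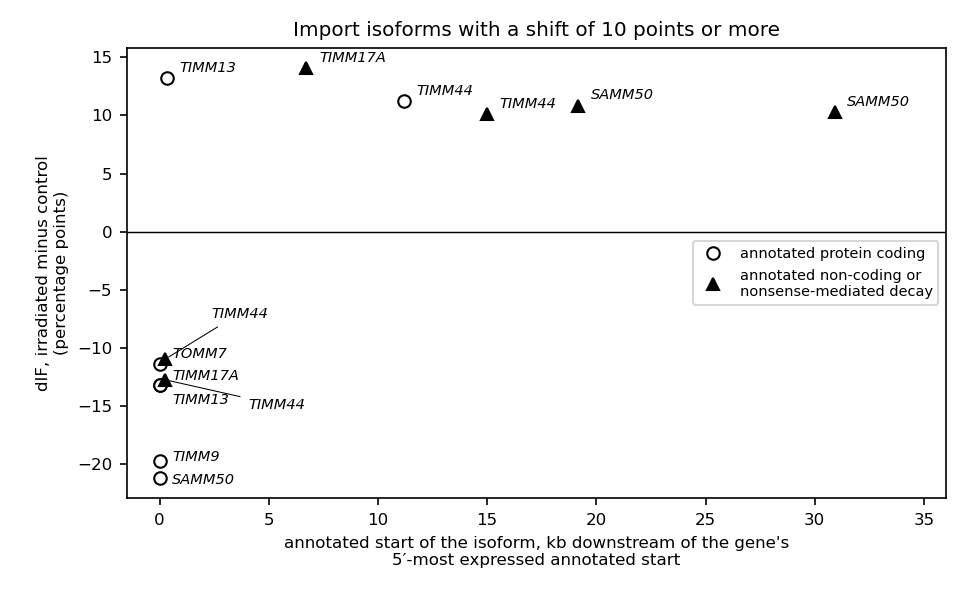
Shift in isoform fraction (dIF, irradiated minus control, percentage points) of the 13 import isoforms with a shift of at least 10 points against the distance of their annotated start from the gene's 5′-most expressed annotated start. Gained isoforms other than that of TIMM13 start more than 1000 bases downstream, and the 7 reduced isoforms start within 254 bases of the first start.

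Other mitochondrial genes were read from 5 lists, again beside 14.1% of all genes lower and 11.6% higher. Of 14 accessory import factors and insertases, 4 fell and 3 rose (median log2 fold change 0.004). CHCHD2, an intermembrane space protein imported through the relay, had 181, 205 and 199 CPM in irradiated cells and 390.1, 381 and 301 CPM in control cells (-0.87), and DNAJC15, a J protein related to DNAJC19, fell as well (-0.83). TOMM40L, the paralog of TOMM40, had 15.3, 13.01 and 19.3 CPM in irradiated cells and 6.77, 6.12 and 9.52 CPM in control cells (1.07), the same direction as TOMM40. Of 6 MICOS genes, which shape the crista junctions, 3 fell: CHCHD3 (-1.13), MICOS10 (-0.54) and MICOS13 (-0.60), with a list median of -0.51. Of 13 mitochondrial peptidases and proteases, 2 fell (XPNPEP3, -1.29, and IMMP1L, -0.64), and the median was 0.003. With totals alone, 1 accessory, 1 MICOS and 1 peptidase gene were lower, 6 peptidase genes were higher, and the medians of these lists were 0.44, -0.06 and 0.46, and with the length offset 2 accessory genes were lower. The median of 5 other matrix chaperones and J proteins was -0.09, and edgeR, DESeq2 and the unadjusted p under 0.05 each called 0 of them in either direction.

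The mRNAs made inside mitochondria need no import. Their 13 genes, each with 1 kept transcript, had a median log2 fold change of 0.26 in the fit with 1-transcript genes, and edgeR and DESeq2 called 0 of 13 in either direction, with MT-CYB alone at an unadjusted p under 0.05 in edgeR. All genes of the mitochondrial genome together took 0.709%, 0.623% and 0.551% of the counts in irradiated cells and 0.315%, 0.445% and 0.539% in control cells. These shares rest on library totals, under which the median of the 13 mRNAs was 0.73. With TMM the groups overlapped in 12 of the 13 genes, all but MT-CYB.

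Some counts rest on loci that share sequence or strand. In GENCODE 29, 24 of the 36 genes overlap another annotated gene, 19 of them one on the opposite strand and 10 one on the same strand. No source used here says whether counting used strand. On their own strand TOMM5 shares 9824 bases with AL513165.2, TIMM10B 3195 bases with AC084337.2 and TOMM6 2237 bases with AL365205.1. PAM16 shares 15357 bases with CORO7-PAM16 on its own strand, and HSPD1 overlaps HSPE1 by 3464 bases on the opposite strand. Pseudogenes named after an import gene number 78 for 15 genes, with 26 for HSPE1, 17 for HSPD1 and 9 for DNAJC19, and reads of these genes and their copies may be split.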

How the data were processed

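The authors deposited raw counts per transcript and library, made by aligning Nanopore cDNA reads to GRCh38 with minimap2 and quantifying with Salmon, per the labels; the sources used here give no versions, no annotation release and no word on collapsing molecular identifiers. The filters that the paper gives for transcript usage were applied here to the gene and transcript tests too: a gene needed 10 counts in 3 or more libraries and 2 or more transcripts, each reaching 3 counts in 1 library. Counts were tested irradiated against control with edgeR 4.0.16 (TMM, quasi-likelihood, robust) in R 4.3.3, without covariates, in place of the DESeq2 of the paper, with Benjamini-Hochberg adjustment over all features. CPM are TMM-scaled; errors are SD over 3 cultures or SE of the log2 fold change. Usage was tested with edgeR's diffSpliceDGE, dIF being the difference of mean isoform fractions. Transcript classes and coordinates came from GENCODE 29, which holds 165 of the 244 import transcripts (67.6%, with 81.3% of the counts). Alternatives used DESeq2 1.42.0 and limma 3.58.1, other scalings and filters, a replicate block and each culture left out. All 36 genes are named; of other lists, up to 3 called genes with the smallest adjusted p. The members, lists and rules were chosen with earlier results of these data known. Scripts were tested on simulated data. Python 3.11.15, pandas 2.3.3, scipy 1.17.1 and matplotlib 3.10.9 made the ratios, sequence searches and plots. Protein sequences were not used here. Counts of PCR-amplified reads are not independent molecules. One marker gene of the cell type check is not reported here.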

Additional observations from a re-analysis of the deposited data

How the results depend on the processing

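The count of lower import genes (20) was 9 with library totals alone, 1 with the log2 fold change limit and 18 to 22 with a culture left out. That of higher import genes (1) was 3 with totals, 0 with RLE factors, no filter, DESeq2 and the log2 fold change limit, and 0 to 2 with a culture left out. Over all genes the lower (1567) and higher (1292) counts were 356 and 3643 with totals, 189 and 445 with the log2 fold change limit, 977 to 1920 and 694 to 1737 with a culture left out, and 856 were higher with the length offset. The import median (-0.56, 33 genes) was -0.11 with totals, -0.40 with the length offset and between -0.65 and -0.51 with a culture left out. It was -0.63 without a filter and -0.66 with 1-transcript genes. These last 2 runs also take in TOMM34, TIMM22 and TIMM23 (36 genes), so their medians cover another set of genes. Lower and higher import transcripts (30 and 5) were 5 and 35 with totals, 24 to 43 and 2 to 11 with a culture left out, and 2 were higher with DESeq2. Switched isoforms (5) were 10 with limma, 8 with length-divided fractions and 2 to 9 with a culture left out. The cause was not tested.

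Signs turned for 10 genes under totals: SAMM50 (0.33), MTX2 (0.16), TIMM8B (0.19), TIMM9 (0.00705), AIFM1 (0.0755), TIMM50 (0.16), TIMM44 (0.37), HSPA9 (0.00315), PMPCA (0.37) and PMPCB (0.24). They turned with the length offset for TIMM8B (0.0341) and TIMM44 (0.0387), without irradiated culture 3 or control culture 1 for TIMM44 (0.11 and 0.24; -0.25 to 0.24 over all cultures left out), and without irradiated culture 2 or control culture 1 for PMPCA (0.03 and 0.16; -0.22 to 0.16).

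Same-numbered samples deviated with correlations of -0.0008, 0.09 and 0.02, and the other pairs with values from -0.105 to 0.094. These values do not decide whether replicate numbers pair the cultures. With the replicate block 20 import genes were lower and 1 higher, beside 1682 lower and 1549 higher over all genes. By the same block 28 import transcripts were lower and 5 higher, and 6 import isoforms switched. Genes with low counts, such as TIMM29 and TOMM70 (means between 5.05 and 10.7 CPM), rest on few reads.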
